A study of Homo sapiens with 12 samples.

Results

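RNA of genes that trim, branch and cap N-glycans in the Golgi was followed in alpha cells treated with tunicamycin, an inhibitor of N-glycan assembly. The counts are of RNA and do not measure glycans. The 34 genes were chosen by name, for the enzymes of the pathway and the sugar suppliers it depends on, out of 28278 gene symbols in the count table, and all 34 were present and passed the filter on low counts. Alpha cells secrete glucagon in the pancreatic islet. Here they had been differentiated from HUES-8, 1 established human embryonic stem cell line. They were kept for 48 h in bioreactors of 30 mL turned at 40 rpm, with the solvent DMSO (6 samples) or with 5 uM tunicamycin (6 samples). The labels give no other difference between the groups and no genetic change in the cells. The samples numbered 1 to 3 and 4 to 6 of each group were sequenced as batch 1 and batch 2. Libraries held 17523442 to 28872269 counts, and levels are given as CPM, a gene's counts scaled to the library's total, itself adjusted by the TMM method.

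Every N-glycan begins as a lipid-linked precursor that is moved onto proteins in the endoplasmic reticulum (ER), and tunicamycin inhibits DPAGT1, the enzyme of the first step. Glycoproteins that reach the Golgi are trimmed by mannosidases, receive N-acetylglucosamine (GlcNAc) branches from the MGAT enzymes, and are then extended with fucose, galactose and sialic acid. The Golgi enzymes are therefore downstream of the step that the drug inhibits, and the sugars they use arrive from the cytosol through dedicated transporters.

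With tunicamycin 5 of the 34 genes rose and 3 fell, at an adjusted p under 0.05 in edgeR's quasi-likelihood test. Over all 17137 genes tested, 7.84% were called, 4.56% higher and 3.29% lower. The genes that rose were NANS, which makes sialic acid, the mannosidases MAN1A1 and MAN1A2, the fucose transporter SLC35C1 and the branching enzyme MGAT2. The genes that fell were the mannosidase MAN1C1, the galactosyltransferase B4GALT5 and the sialyltransferase ST3GAL2. The calls were spread over all 6 roles, and only the mannosidases had calls in both directions. The median log2 fold change of the 34 genes was 0.15, against -0.01 over all genes. NANS alone changed by more than 2-fold.

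Of the 26 genes that were not called, 19 had a positive and 7 a negative log2 fold change, from -0.75 to 0.68. The 95% interval of the fold change left out a 2-fold change in either direction for 23 of the 26 and a 1.5-fold change for 21. In 4 of the 26 the unadjusted p was under 0.05, and the share of all genes at that threshold was not counted. Samples of equal number were treated as pairs, and the fit with the number as a block called 9 genes higher and 3 lower (8.92% and 8.4% over all genes). It added MAN2A1, MGAT1, ST6GAL1 and ST8SIA3, all higher, and kept the other 8 calls.

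**Figure D1:**
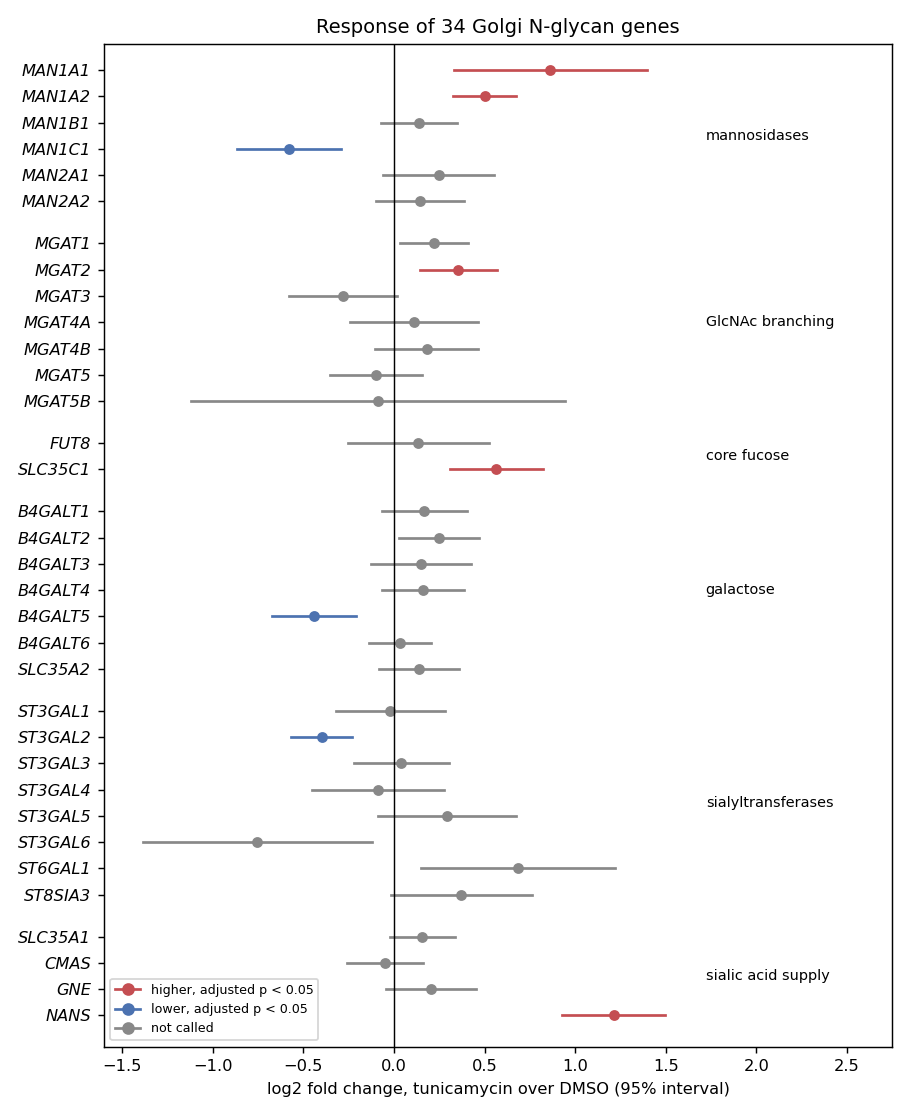
Log2 fold change of each of the 34 genes, tunicamycin over DMSO, with its 95% interval (n = 6 per group), grouped by role. Red and blue points mark the 5 genes called higher and the 3 called lower; NANS lies farthest to the right at 1.21, and most gray intervals cross 0.

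The state of the samples was checked on marker genes. HSPA5, HERPUD1 and DDIT3, induced by the unfolded protein response, were higher in every tunicamycin sample than in any DMSO sample, with a summed level of 719 to 1161 CPM in DMSO against 4016 to 6733 CPM in tunicamycin. All 9 alpha cell markers were detected in all 12 samples. GCG, the glucagon gene, ranged from 61680 to 91980 CPM with DMSO and from 44760 to 68820 CPM with tunicamycin. Its log2 fold change was -0.39 (edgeR adjusted p = 0.18). Summed mesenchymal markers ran from 172 to 1527 CPM with DMSO and from 89.1 to 632.5 CPM with tunicamycin, with 0 of 10 called and a median log2 fold change of -1.27. Summed heart muscle markers ran from 9.85 to 2220 and from 10.8 to 1125 CPM (medians 206 and 31.4), with 0 of 8 called and a median log2 fold change of -2.43. Of the alpha cell markers 2 of 9 and of the beta and delta cell markers 3 of 8 were called lower (medians -0.22 and -0.67), and of 5 proliferation markers 0 were called. Summed ductal, acinar, liver and gut markers were lower in every tunicamycin sample (333 to 490 CPM) than in any DMSO sample (655 to 828 CPM), and 8 of 9 were called lower. None of these markers was at 0 in any library. The part of these other cells in the results was not tested, apart from a fit with the mean of the mesenchymal markers as a covariate, and in bulk RNA fewer cells of a type and less RNA per cell cannot be told apart. That fit called 2 of the 34 genes higher and 3 lower, against 3.25% and 1.77% of all genes, and lost MAN1A1, MGAT2 and SLC35C1.

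**Figure D2:**
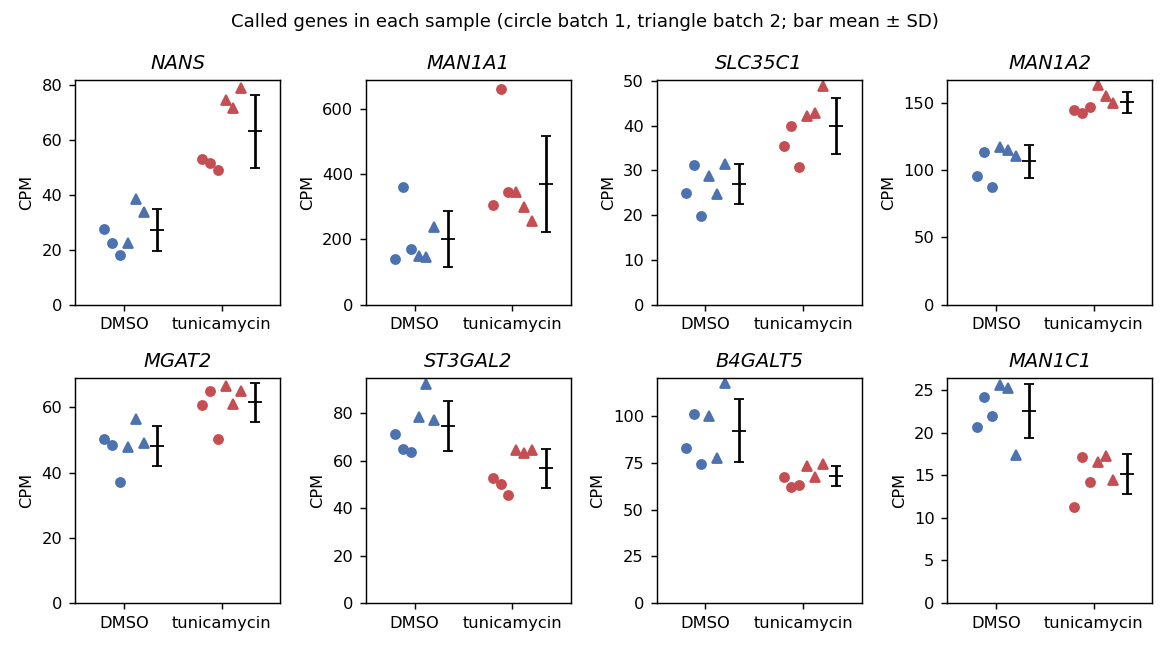
CPM of the 8 called genes in each of the 12 samples (circles batch 1, triangles batch 2), with the mean and SD of each group of 6 beside the points. The groups are apart for NANS and MAN1A2, nearly touch for MAN1C1 and B4GALT5, and overlap for the other 4 genes.

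Sialic acid supply held the largest response. NANS (chromosome 9, 98056739 to 98083075, plus strand, GRCh38) encodes the synthase that joins a mannosamine phosphate to phosphoenolpyruvate to form the sialic acid backbone. Its level was 18.1 CPM at the lowest, 25.0 at the median and 38.4 at the highest with DMSO, and 49.0, 62.3 and 78.9 CPM with tunicamycin. Every tunicamycin sample lay above every DMSO sample, and the samples numbered 3 were the lowest of both groups. Mean levels were 27.1 ± 7.73 and 63.1 ± 13.3 CPM (SD, n = 6 each), a 2.32-fold rise (1.21 ± 0.13 SE on the log2 scale, edgeR adjusted p = 6.3e-05). The log2 fold change was 1.19 in batch 1, 1.25 in batch 2 and 1.27 with the mesenchymal covariate. NANS was also higher in batch 2 than in batch 1, by 0.51 on the log2 scale. Exons of TRIM14 on the opposite strand overlap 422 of the 4922 exonic bases of NANS. Reads from that stretch cannot be assigned to either gene without the strand setting.

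The other 3 of the 34 genes with a role in sialic acid supply did not pass the test. GNE, which catalyses the committed steps before it, was at 41.8 ± 5.66 CPM with DMSO and 48.2 ± 6.38 with tunicamycin (log2 fold change 0.21, adjusted p = 0.33). CMAS, which activates sialic acid with CMP in the nucleus, was at 70.0 ± 8.61 and 67.9 ± 11.4 CPM (-0.05, adjusted p = 0.83). SLC35A1, the CMP-sialic acid transporter of the Golgi, was at 30.7 ± 3.63 and 34.1 ± 4.04 CPM (0.16, adjusted p = 0.30). The 95% intervals of these differences ran from -0.04 to 0.45 for GNE, from -0.26 to 0.16 for CMAS and from -0.02 to 0.34 for SLC35A1. All 3 intervals thus ended below the lower end of the interval of NANS, 0.93. For SLC35A1, exons of AL049697.1 on the same strand overlap 1106 of the 1994 exonic bases. Reads there cannot be told apart by strand.

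Promoters were searched for the motifs that factors of the unfolded protein response are known to bind. RefSeq windows from 250 bases before to 50 bases after the gene start (GRCh38.p14) were at hand for 28 of the 34 genes, not for MAN1A2, MGAT3, MGAT4A, B4GALT6, ST3GAL1 and ST3GAL2. The search covered both strands for the UPRE (TGACGTGG), bound by XBP1 and ATF6, for ERSE (CCAAT, then 9 bases of any kind, then CCACG) and ERSE-II (ATTGG, then 1 base of any kind, then CCACG), bound by ATF6, and for CARE (TGATGNAA), bound by ATF4. NANS alone of the 28 held the UPRE, once, on the gene's own strand at chr9:98056691-98056698, with its first base at position -41 from the RefSeq start. Of all 27305 genes with a window 0.927% held it, and of the 12834 tested genes with a window 1.15%. CARE was present in FUT8 alone (position -187, opposite strand), against 4.46% of all genes with a window and 2.98% of the tested ones. ERSE and ERSE-II were present in 0 of the 28, against 0.0916% and 0.0696% of all genes. A match of letters is not a measured binding site. The 250 bases before the start are shown for the most increased gene (chr9:98056482-98056731, plus strand), with the UPRE in capitals. They are followed by MAN1A1 (chr6:119349762-119350011, minus strand), the next largest increase, and B4GALT5 (chr20:49713879-49714128, minus strand), a decreased gene, which hold none of the motifs and so no capitals.
NANS: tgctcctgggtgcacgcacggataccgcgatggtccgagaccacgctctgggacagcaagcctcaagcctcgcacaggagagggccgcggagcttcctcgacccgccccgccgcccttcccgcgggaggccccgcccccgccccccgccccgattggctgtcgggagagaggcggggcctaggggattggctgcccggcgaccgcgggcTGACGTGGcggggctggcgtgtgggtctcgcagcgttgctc
MAN1A1: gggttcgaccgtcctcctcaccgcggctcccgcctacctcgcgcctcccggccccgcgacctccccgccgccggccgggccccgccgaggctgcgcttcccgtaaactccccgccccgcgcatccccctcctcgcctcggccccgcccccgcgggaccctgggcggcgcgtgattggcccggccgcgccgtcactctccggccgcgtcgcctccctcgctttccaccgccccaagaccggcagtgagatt
B4GALT5: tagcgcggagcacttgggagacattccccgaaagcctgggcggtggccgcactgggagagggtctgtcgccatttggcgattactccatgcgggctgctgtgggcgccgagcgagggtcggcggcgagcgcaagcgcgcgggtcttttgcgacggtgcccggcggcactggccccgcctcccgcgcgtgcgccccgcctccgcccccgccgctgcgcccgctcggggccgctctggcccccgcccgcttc

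Among the trimming mannosidases 2 of 6 rose and 1 fell, where 4.56% of all genes rose and 3.29% fell. MAN1A1, MAN1A2 and MAN1C1 encode Golgi mannosidases of class I, which take mannose off the incoming glycan before the first GlcNAc branch is added. MAN1A1 (chromosome 6, 119177209 to 119349761, minus strand) was at 141, 159 and 361 CPM (lowest, median and highest) with DMSO and at 256, 326 and 663 CPM with tunicamycin. The samples numbered 2 were by far the highest of both groups, and DMSO 2 was above 5 of the 6 tunicamycin samples. Mean levels were 201 ± 86.3 and 369 ± 148 CPM, a 1.82-fold rise (0.86 ± 0.25, adjusted p = 0.049, higher in 6 of 6 pairs of equal number). This call depended on single samples. It was lost without DMSO 1, 3, 4 or 5 or tunicamycin 2, 3, 4, 5 or 6 (adjusted p up to 0.118), without the batch covariate (0.0694) and with the mesenchymal covariate (0.46 on the log2 scale, adjusted p = 0.21). With the block the adjusted p was 0.00075, and without both samples numbered 2, an alternative chosen after seeing the data, it was 0.0041.

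MAN1A2 (chromosome 1, 117367449 to 117528872, plus strand) gave a smaller and more even difference. Its levels were 87.7, 112 and 117 CPM with DMSO and 143, 149 and 164 CPM with tunicamycin, with no overlap. Means of 107 ± 12.1 and 151 ± 7.72 CPM gave a 1.41-fold rise (0.50 ± 0.08, adjusted p = 0.0017), and remained called whichever sample was left out and with the mesenchymal covariate (0.44, adjusted p = 0.016). MAN1C1 (chromosome 1, 25617468 to 25786207, plus strand), the least abundant mannosidase per kb of exon, went the other way. It was at 17.4, 23.1 and 25.6 CPM with DMSO and at 11.2, 15.5 and 17.3 CPM with tunicamycin, so that the groups lay just apart, at DMSO 6 and tunicamycin 5. Means of 22.5 ± 3.17 and 15.1 ± 2.32 CPM gave a 1.49-fold fall (-0.58 ± 0.13, adjusted p = 0.017), and remained called whichever sample was left out.

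The other 3 mannosidases were not called. MAN1B1, which trims mannose early and also marks misfolded glycoproteins for degradation, was at 88.6 ± 14.5 and 96.9 ± 8.67 CPM (0.14, adjusted p = 0.46). MAN2A2, a mannosidase of class II, which acts after MGAT1 has added its GlcNAc, was at 188 ± 29.1 and 208 ± 18.3 CPM (0.14, adjusted p = 0.51). Its relative MAN2A1 was at 75.8 ± 20.9 and 90.4 ± 26.2 CPM (0.25, adjusted p = 0.35), and the block called it (adjusted p = 0.046). With the mesenchymal covariate the log2 fold change of MAN2A1 was -0.0035.

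**Figure D3:**
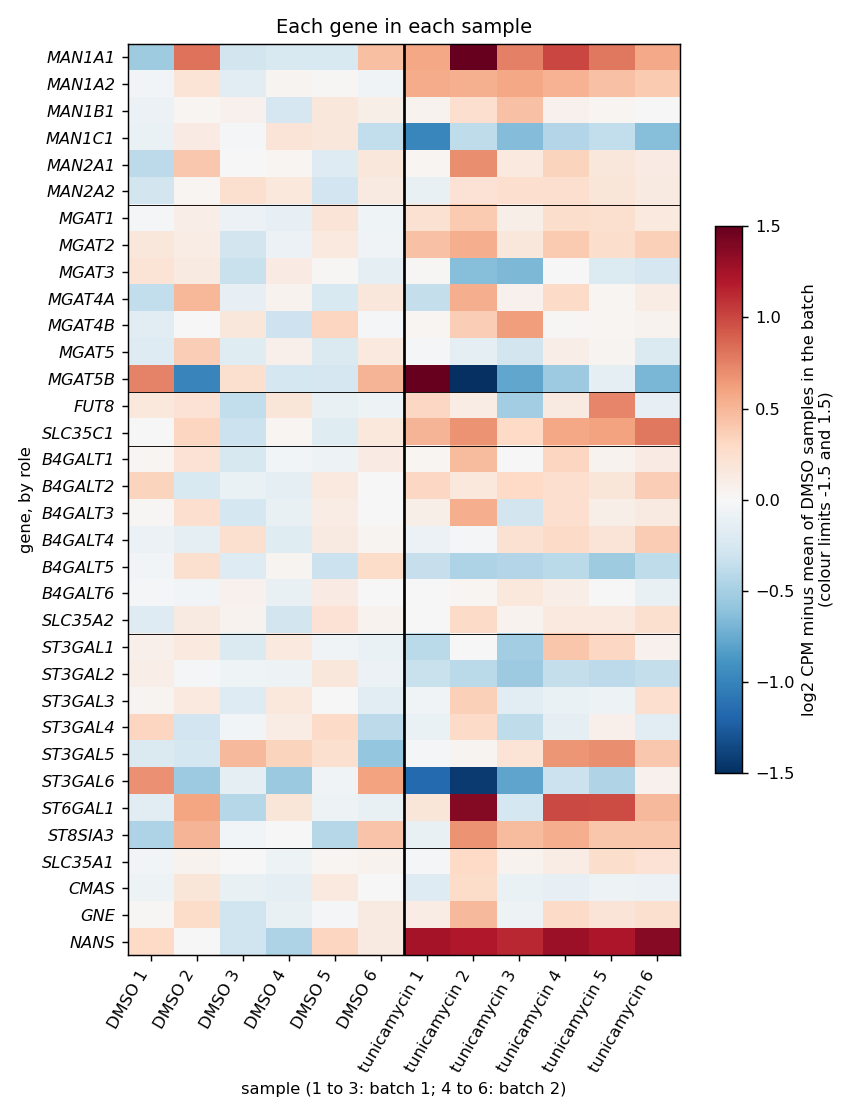
Log2 CPM of each gene (rows, by role) in each sample (columns), minus the mean of the DMSO samples of the same batch; red is higher, blue lower. NANS and MAN1A2 are red and MAN1C1, B4GALT5 and ST3GAL2 blue in all 6 tunicamycin samples, and MAN1A1 and ST6GAL1 are red in both samples numbered 2.

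Of the 7 branching enzymes 1 rose and 0 fell, against 4.56% and 3.29% of all genes. MGAT1 and MGAT2 add the GlcNAc residues that start the arms of a complex N-glycan. MGAT2 (chromosome 14, 49620795 to 49623481, plus strand) was at 37.0, 48.8 and 56.3 CPM with DMSO and at 50.4, 63.1 and 66.7 CPM with tunicamycin. Tunicamycin 3 stood low in its group, below DMSO 5, and the other 5 tunicamycin samples were above every DMSO sample. With means of 48.2 ± 6.27 and 61.5 ± 5.93 CPM it rose 1.28-fold (0.35 ± 0.10, adjusted p = 0.042, higher in 6 of 6 pairs). The call was lost without DMSO 3, 4 or 6 or tunicamycin 1, 2, 4, 5 or 6 (adjusted p up to 0.106), without the filter on low counts, without the batch covariate (0.0736) and with the mesenchymal covariate (0.18). An antisense transcript overlaps 2469 of the 2687 exonic bases of MGAT2, so its counts may include reads of the other strand.

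MGAT1 was at 103 ± 14.2 CPM with DMSO and 120 ± 13.9 with tunicamycin (0.22, adjusted p = 0.14; with the block 0.0498). MGAT3, which adds the bisecting GlcNAc, was at 46.2 ± 10.1 and 38.7 ± 12.3 CPM (-0.28, adjusted p = 0.25), lower with tunicamycin in 6 of 6 pairs. MGAT4A and MGAT4B, which add a further branch to the same arm as MGAT1, had log2 fold changes of 0.11 and 0.18 (adjusted p = 0.76 and 0.47). MGAT5, the enzyme of the branch that is often raised in tumors, was at -0.10 (adjusted p = 0.68). Its relative MGAT5B, known from the brain, had the lowest level and the widest interval, from -1.12 to 0.95, and its tunicamycin samples ran from 1.00 CPM (number 2) to 10.3 CPM (number 1). Its counts ran from 19 to 253 per library, and the interval left out neither a 2-fold fall nor a 1.5-fold rise.

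Fucose reaches N-glycans through 2 of the genes. SLC35C1 (chromosome 11, 45804072 to 45813015, plus strand), which carries GDP-fucose into the Golgi, was at 19.9, 26.9 and 31.5 CPM with DMSO and at 30.8, 41.0 and 48.8 CPM with tunicamycin. The groups overlapped only through tunicamycin 3, the lowest of its group, which lay below DMSO 2 and DMSO 6. Mean levels were 26.9 ± 4.49 and 40.0 ± 6.26 CPM, a 1.48-fold rise (0.56 ± 0.12, adjusted p = 0.010), and remained called whichever sample was left out but not with the mesenchymal covariate (0.45, adjusted p = 0.071). FUT8, which places the core fucose, was at 19.7 ± 3.29 and 21.6 ± 5.93 CPM (0.14, adjusted p = 0.72), with tunicamycin 5 at 30.7 CPM, above all other samples.

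In the galactose step 0 of 7 genes rose and 1 fell (4.56% and 3.29% over all genes). B4GALT5 (chromosome 20, 49632945 to 49713878, minus strand) encodes a galactosyltransferase known above all as a lactosylceramide synthase, so that its main product is a glycolipid. It was at 74.6, 91.4 and 118 CPM with DMSO and at 62.1, 67.2 and 74.5 CPM with tunicamycin. DMSO samples were spread widely and tunicamycin samples narrowly, and the groups met at DMSO 3 (74.55 CPM) and tunicamycin 6 (74.54 CPM). The means, 92.2 ± 16.7 and 67.9 ± 5.17 CPM, gave a 1.36-fold fall (-0.44 ± 0.11, adjusted p = 0.022, lower in 6 of 6 pairs). It was not called without DMSO 4, tunicamycin 4 or tunicamycin 5 (adjusted p up to 0.0625) or without both samples numbered 2 (0.0563), and it was called with the mesenchymal covariate (-0.53, adjusted p = 0.023).

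B4GALT6, the other lactosylceramide synthase, was at 38.0 ± 5.11 CPM with DMSO and 39.0 ± 6.27 with tunicamycin (0.03, 95% interval -0.14 to 0.20, adjusted p = 0.86). The ratio of B4GALT5 to B4GALT6 counts, which does not depend on library scaling, had a median of 2.29 with DMSO and 1.79 with tunicamycin and was lower in 6 of 6 pairs. The log2 ratio differed by -0.46 (exact permutation within batches, two-sided p = 0.015, adjusted over 6 ratios 0.09), which does not pass. B4GALT1, the main galactosyltransferase of N-glycans, and B4GALT2, B4GALT3 and B4GALT4 had log2 fold changes of 0.17, 0.25, 0.15 and 0.16 (adjusted p = 0.41, 0.17, 0.55 and 0.41). SLC35A2, the UDP-galactose transporter of the Golgi, was at 28.9 ± 4.33 and 31.9 ± 3.62 CPM (0.14, adjusted p = 0.48). Without DMSO 1 B4GALT2 was called higher (adjusted p = 0.0467).

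Of the 8 sialyltransferases 0 rose and 1 fell, beside 4.56% and 3.29% of all genes. ST3GAL2 (chromosome 16, 70375978 to 70439237, minus strand), which sialylates galactose mainly on O-glycans and gangliosides, was at 63.7, 74.3 and 92.6 CPM with DMSO and at 45.8, 58.0 and 64.5 CPM with tunicamycin. The tunicamycin samples of batch 2 overlapped the DMSO samples of batch 1, and within each batch every tunicamycin sample was below every DMSO sample. The means were 74.8 ± 10.7 and 56.8 ± 8.23 CPM, a 1.32-fold fall (-0.40 ± 0.08, adjusted p = 0.0063). The difference was -0.42 in batch 1 and -0.37 in batch 2, it remained called whichever sample was left out, and it was lost without the batch covariate (0.0725). An antisense transcript overlaps 590 bases of its exons.

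ST6GAL1 (chromosome 3, 186930485 to 187078553, plus strand) caps the galactose of N-glycans with sialic acid in another linkage than the ST3GAL enzymes. It was at 63.6, 73.3 and 129 CPM with DMSO and at 71.3, 124 and 223 CPM with tunicamycin, highest in both samples numbered 2 and lowest in both numbered 3. Means were 81.7 ± 24.3 and 131 ± 53.4 CPM (0.68 ± 0.25, adjusted p = 0.12), and tunicamycin was higher in 6 of 6 pairs. The block (adjusted p = 0.0025), DESeq2 (0.0448), batch 2 alone (0.83 on the log2 scale, adjusted p = 0.020) and the fit without both samples numbered 2 (0.61, adjusted p = 0.028) called it, while the mesenchymal covariate took the value to 0.39 (adjusted p = 0.44). The ratio of ST6GAL1 to ST3GAL4, which caps N-glycans in the ST3GAL linkage, had a median of 7.39 with DMSO and 12.1 with tunicamycin (log2 difference 0.70, exact permutation within batches p = 0.045, adjusted over 6 ratios 0.135).

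The remaining sialyltransferases were not called. ST3GAL6, one of the least abundant of the 34 genes, had the most negative value outside the calls (-0.75 ± 0.29, adjusted p = 0.14). It ran from 2.23 CPM in DMSO 4 to 9.91 in DMSO 1, against 2.27 to 3.54 CPM with tunicamycin, and DMSO 1 also had the highest mesenchymal sum. ST8SIA3, which adds sialic acid to sialic acid, was at 121 ± 38.4 and 157 ± 31.4 CPM (0.37, adjusted p = 0.25; with the block 0.021). ST3GAL5, the sialyltransferase that opens ganglioside synthesis, was at 0.29 (adjusted p = 0.37), ST3GAL3 at 0.04 and ST3GAL4 at -0.09 (adjusted p = 0.89 and 0.82). ST3GAL1, which acts on O-glycans, was at -0.29 in batch 1 and 0.27 in batch 2, with an unadjusted interaction p of 0.037. After adjustment the interaction of treatment and batch was called for 0 of 17137 genes by edgeR (169 at an unadjusted p under 0.05) and for 0 by DESeq2. With 3 samples per batch and group, 0 calls do not show that the batches responded alike.

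**Figure D4:**
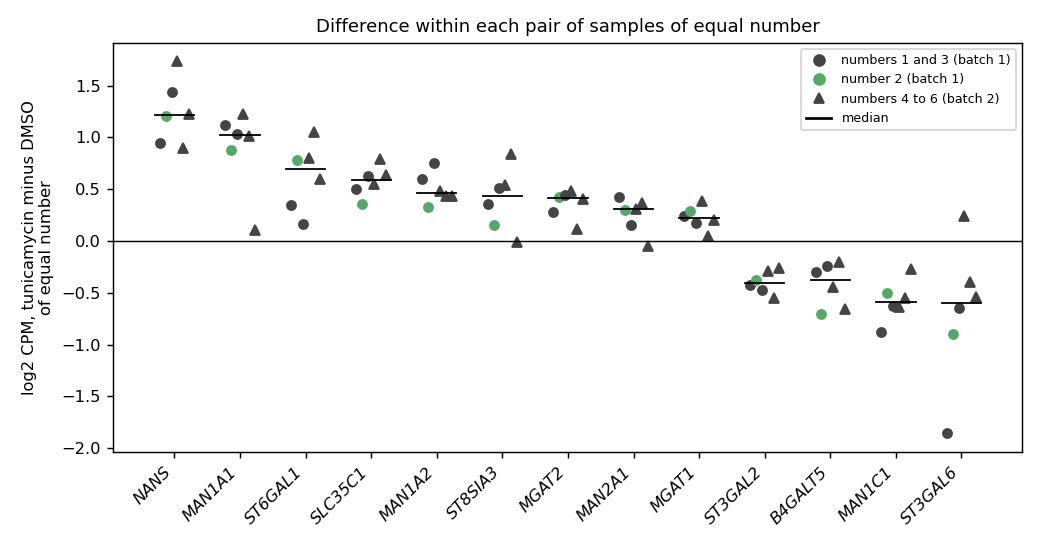
Log2 CPM of each tunicamycin sample minus the DMSO sample of equal number, for the 8 called genes and 5 genes with other large or block-dependent values (points; lines are medians of 6 pairs). All pairs lie on one side of 0 for the 8 called genes, ST6GAL1 and MGAT1, while MAN1A1 has 1 pair, number 6, near 0.

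Differences within pairs of equal number varied in size, for NANS from 0.89 to 1.74 on the log2 scale, for MAN1A1 from 0.11 to 1.22 and for ST3GAL6 from -1.86 to 0.24. Of the 34 genes 11 were higher with tunicamycin in 6 of 6 pairs, against 10.7% of all genes, and 4 were lower in 6 of 6 pairs, against 10.4%. Beside the called genes, the 11 held MAN2A2, MGAT1, B4GALT1, ST6GAL1, SLC35A1 and GNE, and the 4 held MGAT3. The groups did not overlap for NANS and MAN1A2 (higher) and MAN1C1 and B4GALT5 (lower), 2 and 2 of 34, against 2.47% and 1.3% of all genes. The 2 lower ones were near ties. B4GALT5 was at 74.55 CPM in DMSO 3 and 74.54 in tunicamycin 6, and MAN1C1 at 17.38 in DMSO 6 and 17.28 in tunicamycin 5. In both batches the log2 fold change had the same sign for 29 of the 34 genes and for all 8 called. The calls came from both batches together, so the equal signs of the called genes are not separate support. The share of all genes with equal signs was not counted. Batch 1 alone called 0 of the 34 higher and 0 lower by edgeR (0.301% and 0.0354% of all genes), with 4 and 4 at an unadjusted p under 0.05. Batch 2 alone called 4 higher, NANS, MAN1A2, SLC35C1 and ST6GAL1, and 0 lower (2.7% and 1.23% of all genes), with 3 lower at an unadjusted p under 0.05. For neither batch was the share of all genes at that unadjusted threshold counted, so the unadjusted counts have no background to be read against. Between batches 4 of the 34 were higher in batch 2 and 1 was lower, against 1.93% and 1.69% of all genes. MGAT3, B4GALT2, ST3GAL2 and NANS were the higher ones (0.61, 0.40, 0.34 and 0.51 on the log2 scale) and B4GALT6 the lower one (-0.36).

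The highest and lowest samples were counted for each gene. DMSO 2 was the highest of its group for 12 of the 34 genes and tunicamycin 2 for 10, where 21.0% and 24.8% of all genes were highest in those samples. MAN1A1, MAN2A1, MGAT4A, B4GALT1, ST6GAL1, ST8SIA3, SLC35A1, CMAS and GNE, 9 of the 34, were highest in both, as were 13.8% of all genes. The samples numbered 2 also had the lowest mesenchymal sums of their groups (172 and 89.1 CPM) and the highest GCG levels (91980 and 68820 CPM). Without both of them, 5 of the 34 genes were called higher and 2 lower. Over all genes that fit called 855 higher and 589 lower (781 and 563 with all samples). Among the 34, MGAT2 and B4GALT5 were lost and ST6GAL1 was gained. The samples numbered 3 were the lowest of both groups for 12 of the 34 genes, among them NANS, SLC35C1, MGAT2 and ST3GAL2, and for 12.1% of all genes. Those shares describe these samples and were not tested. The part of mesenchymal cells in these sample differences was not tested.

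Levels were compared between genes as CPM per kb of exon, with all annotated exons of a gene joined. The transcripts in use were not measured, and the order between genes depends on the joined length. ST3GAL3 (20.8 CPM with DMSO) has 19475 exonic bases, and ST3GAL4 (10.2 CPM) has 4465. In DMSO samples MAN1A1 (40.1 ± 17.2), MGAT4B (37.0 ± 8.66) and CMAS (34.7 ± 4.27) were highest and did not differ beyond their spread. A gap of 15.2 CPM per kb separated them from B4GALT5 (19.5 ± 3.55), MAN2A2 (18.8 ± 2.91) and MGAT2 (17.9 ± 2.33). The lowest levels were those of ST3GAL3 (1.07 ± 0.14), ST3GAL6 (0.80 ± 0.43) and MGAT5B (0.71 ± 0.31). Most neighbors in the order lay closer than their SD, and gaps beyond it followed CMAS, MGAT2, B4GALT3, B4GALT4 and ST3GAL4. With tunicamycin the top 3 were the same, and NANS moved from place 25 to place 13 (5.51 ± 1.57 to 12.8 ± 2.70 CPM per kb). B4GALT5 moved from place 4 to place 10 and ST3GAL2 from 19 to 26. None of the other 4 ratios between related enzymes passed either. The log2 ratio of MAN1A1 to MAN1A2 differed by 0.39, that of MAN2A1 to MAN2A2 by 0.10, that of MGAT4A to MGAT4B by -0.07 and that of MGAT5 to MGAT5B by 0.26 (exact permutation adjusted p = 0.37, 0.68, 0.77 and 0.77).

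**Figure D5:**
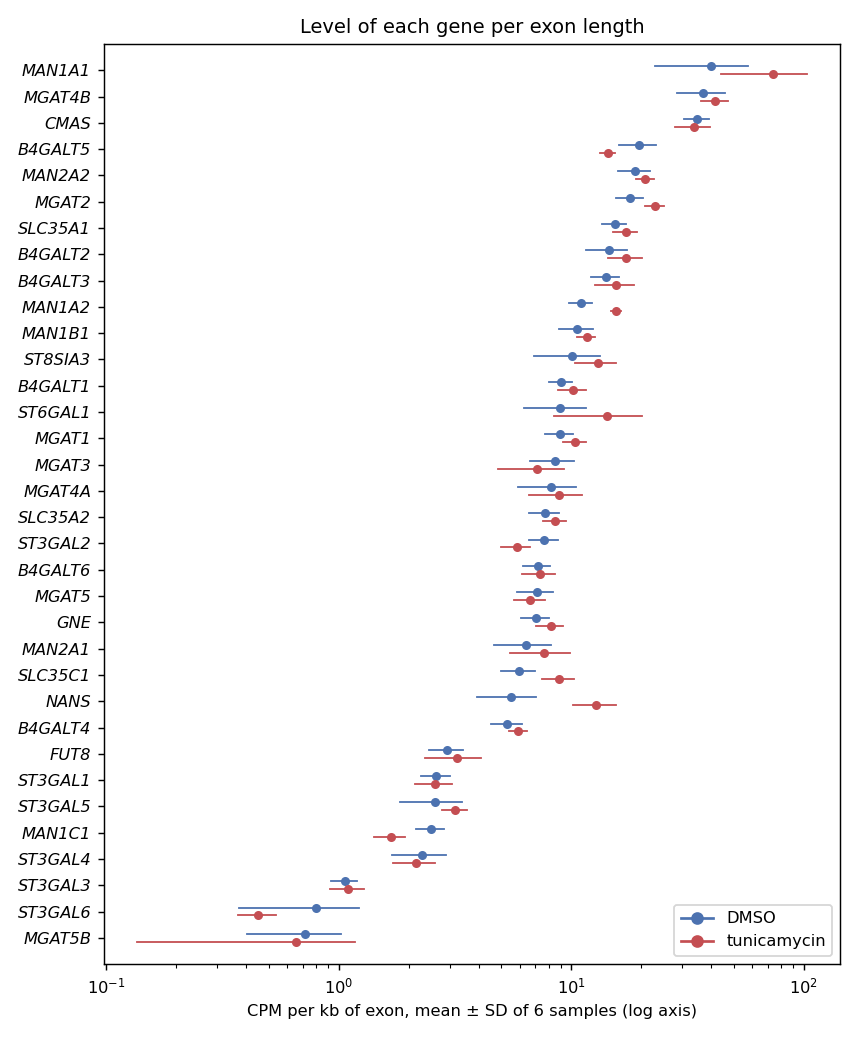
Level of each gene in CPM per kb of exon (log axis; mean ± SD of 6 samples), DMSO in blue and tunicamycin in red, ordered by the DMSO level. MAN1A1, MGAT4B and CMAS stand above the rest in both groups, and NANS shows the widest separation of blue and red.

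Neighboring steps of glycosylation were read from 8 further lists, in which 26 of 143 tested genes rose and 3 fell, against 4.56% and 3.29% of all genes. In ER assembly of the N-glycan precursor 7 of 24 rose and 0 fell (median 0.31), with ALG5, a glucosyltransferase, at 1.40 and DPAGT1 at 1.02. ER trimming and quality control had 5 of 9 higher and 0 lower (median 0.43), with EDEM1, which helps to discard misfolded glycoproteins, at 1.43 and UGGT1, the folding sensor, at 1.22. Supply of nucleotide sugars had 5 of 18 higher and 0 lower (median 0.14), led by GFPT1 (1.00) and PGM3 (0.80) of the path to UDP-GlcNAc.

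The other 5 lists, mostly of Golgi enzymes, held 9 higher and 3 lower genes of 92 tested (9.78% and 3.26%), against 4.56% and 3.29% of all genes. Of 18 genes for other terminal sugars of N-glycans 1 rose, MGAT4C, a relative of the branching enzymes (0.67, adjusted p = 0.028), a call lost without DMSO 1, 3, 4 or 5 or tunicamycin 2 or 4 (adjusted p up to 0.0856). Of 24 tested mucin-type O-glycan genes 1 rose and 3 fell. ST6GALNAC4, a sialyltransferase of O-glycans, was at 0.72 (adjusted p = 0.0045), and GALNT12, which starts O-glycans, at -0.51 (adjusted p = 0.048), lost without DMSO 3, 4 or 5 or any of the tunicamycin samples (up to 0.103). The other calls, GALNT1 (-0.27) and GALNT2 (-0.35), were named after their values were seen, and all 3 decreases were lost without both samples numbered 2. Of 17 glycosaminoglycan genes 2 rose, CHPF, a chondroitin polymerase (0.60, adjusted p = 0.011), and HS6ST1, a heparan sulfotransferase (0.53, adjusted p = 0.044). The call of HS6ST1 was held only without DMSO 2 or tunicamycin 3 among the 12 fits that left out a sample. Of 19 genes of Golgi structure and ion balance 4 rose, led by SLC10A7 (0.98, adjusted p = 0.00036), a transporter-like protein of calcium balance, and COG3, of the tethering complex that recycles Golgi enzymes (0.59, adjusted p = 0.0015). In the list for glycan breakdown, mostly lysosomal enzymes, 1 of 14 tested genes rose. It was ENGASE, a cytosolic and not a lysosomal enzyme, which frees N-glycans (0.33, adjusted p = 0.044), a call held only without DMSO 3, DMSO 4 or tunicamycin 3. ST6GALNAC1 and NEU4 did not pass the filter. With the mesenchymal covariate MGAT4C, GALNT12, CHPF and HS6ST1 were no longer called, and over the 8 lists 22 genes were higher and 1 lower.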

How the data were processed

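RNA of 12 samples was sequenced in bulk. The authors deposited raw read counts per gene symbol, as whole numbers with no normalization, made with cutadapt 4.4, HISAT2 2.1.0 and featureCounts 2.0.6 on GRCh38, per the submitters' processing notes. Neither the annotation nor the strand setting is given in the sources used here, which leaves counts of overlapping and antisense genes uncertain. Libraries held 17523442 to 28872269 counts. Any pair within a group differed beyond sampling noise (chi-square per gene 10.9 to 99.6, for summed counts of at least 20), and all samples were kept. Nothing says whether replicates came from separate differentiations, and p-values measure only the spread among them.

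From the counts, edgeR 4.0.16 (R 4.3.3) was run with filterByExpr (17137 genes kept, 11141 removed), TMM factors, a batch term, the quasi-likelihood test, and Benjamini-Hochberg adjustment over all genes with a threshold of 0.05. Where no other test is named, an adjusted p comes from it. CPM use the TMM-scaled library sizes. Fold changes set tunicamycin over DMSO, the SE is that of the log2 value, and tests are two-sided. The mesenchymal covariate is the mean log2 CPM of 10 markers. Ratios of 2 genes used counts plus 0.5 and an exact permutation within batches, whose smallest p is 0.005. Exon lengths, positions and overlaps are from GENCODE for GRCh38, promoter windows from RefSeq (GRCh38.p14). The tests were tried on simulated data first.

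Same-number samples of the groups deviated together (correlations across genes 0.49, 0.56, 0.50, 0.12, 0.18 and 0.18 for numbers 1 to 6), all over 0.1, and were treated as pairs. For numbers 4 and 5 a sample of another number correlated better (0.18 and 0.27). The labels call the numbers biological replicates and do not say what samples of equal number share. A block value is given where it changes a call. DESeq2 1.42.0 and limma 3.58.1 served as alternatives. The 34 genes and the other lists were chosen with earlier results of these data known. All 34 are named, and of each other list the 2 called genes with the largest change and a mean log2 CPM of 1 or more. For 1 list gene an older symbol was used.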

Additional observations from a re-analysis of the deposited data

Results flagged for a closer look

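Each group of 6 samples was checked for a sample far from its nearest neighbor, in 34 genes and both groups. Of 68 such groups 6 held one, and chance alone flags about 1 in 20 groups. Tunicamycin 2 stood high for MAN1A1 at 663.2 CPM, where the next sample was at 346.2. The same sample stood high for MAN2A1 at 139.8 CPM (next 95.09) and for CMAS at 89.96 CPM (next 69.82). DMSO 2 stood high for MGAT4A at 121.7 CPM (next 79.24) and for ST6GAL1 at 129.2 CPM (next 83.06). Tunicamycin 3 stood low for MGAT2 at 50.43 CPM, where the next sample was at 60.85. Of these 6 values, 5 belong to samples numbered 2, which share the low mesenchymal sums given above.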

How the results depend on the processing

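All-gene calls (1344, with 781 higher and 563 lower) were 2100 with DESeq2 (1007 lower), 861 with the mesenchymal covariate (304 lower), 57 in batch 1 alone (51 higher, 6 lower) and 654 in batch 2 alone (449 higher, 205 lower). The replicate block gave 2967 (1528 higher, 1439 lower), 9 of the 34 genes higher and 8 list genes lower, and changed no other call of the 34 than the 4 named. Leaving out 1 sample gave 791 to 1399 calls (791 without tunicamycin 4), 514 to 845 higher and 277 to 603 lower (355 without DMSO 1, 344 without DMSO 5, 277 without tunicamycin 4 and 332 without tunicamycin 5), with 3 to 6 of the 34 higher (5 in the full fit, 3 without DMSO 3 or 4 or tunicamycin 2, 4, 5 or 6) and 0 to 2 list genes lower (3 in the full fit). Of the 34, 3 were higher when batch was left out of the model, 2 with the mesenchymal covariate, 0 in batch 1 alone (also 0 lower) and 0 lower in batch 2 alone. List genes called lower were 1 with limma-voom or the mesenchymal covariate and 0 without the count filter, without the batch covariate, in either batch alone and without both samples numbered 2. List genes called higher were 3 in batch 1 alone. RLE factors, upper quartile factors, limma-voom and a minimum of 1 CPM changed no call of the 34. The cause of these changes was not tested, and the fits of a batch alone also had fewer samples.

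Signs turned in genes that were not called. With the mesenchymal covariate the log2 values were -0.0035 for MAN2A1, -0.19 for MGAT4A, 0.63 for MGAT5B, -0.0088 for B4GALT3 and -0.094 for ST3GAL3. Batch 1 alone gave 0.32 for MGAT5B, -0.0061 for FUT8 and 0.012 for CMAS. Batch 2 alone gave -0.0018 for B4GALT6 and 0.27 for ST3GAL1, and leaving out both samples numbered 2 gave 0.0024 for MGAT5 and 0.0011 for ST3GAL1. Without 1 sample the ranges were -0.0061 to 0.25 for FUT8, -0.0029 to 0.24 for MGAT4A, -0.15 to 0.0048 for MGAT5, -0.83 to 0.089 for MGAT5B, -0.083 to 0.060 for ST3GAL1 and -0.035 to 0.087 for ST3GAL3. Log2 ratios then ran from 0.19 (without tunicamycin 2) to 0.56 for MAN1A1/MAN1A2 (0.39 with all samples), from -0.56 to -0.35 for B4GALT5/B4GALT6, from -0.022 to 0.21 for MAN2A1/MAN2A2, from -0.26 to 0.10 for MGAT4A/MGAT4B, from -0.043 to 0.60 for MGAT5/MGAT5B and from 0.56 to 0.94 for ST6GAL1/ST3GAL4. The smallest count of any of the 34 genes in a library was 19, for MGAT5B, whose samples also spread widely, so that depth and spread were not separated.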
